A study of Mus musculus with 6 samples.

Results

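The genes described here encode the subunits of the mitochondrial respiratory chain in mouse lung. They were taken from the table of messenger RNA counts by symbol: every gene that starts with mt-, and nuclear genes that start with Nduf followed by a, b, c, s or v and a digit, with Sdha to Sdhd, or with Uqcr, Cox4 to Cox8 or Atp5. This gave 99 of the 17973 mRNAs in the table, of which 13 lie in the mitochondrial genome and 86 in the nucleus. Whole lungs of C57BL/6 mice were sequenced in 6 libraries of total RNA, 3 control (C7, C8 and C9) and 3 silicosis (N129, N136 and N138). Silicosis, a scarring lung disease caused by crystalline silica, was modelled by instilling 8 mg of silica in 40 µL of sterile normal saline once into the trachea, and every lung was taken at day 90 and frozen. For the controls, the series text names sterile normal saline. The labels give no age, no sex and no separate animal for each library, so p-values measure the spread between these libraries, which may be technical.

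The respiratory chain passes electrons from NADH and succinate through complexes I and II to ubiquinone, on through complex III and cytochrome c, and through complex IV to oxygen. The protons pumped on the way drive complex V, the ATP synthase. Complexes I, III, IV and V are each built from a few core proteins made inside the mitochondrion from its own circular genome and many more imported from the cytosol, while complex II is wholly nuclear. In the lung, alveolar type 2 cells, ciliated cells and the muscle of vessels and airways are known for dense mitochondria.

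The libraries held 33698920 to 44000748 counts, and 15808 mRNAs passed the filter on low counts. Values below are CPM, counts per 1000000 after TMM scaling, and log2 fold changes are silicosis over control from edgeR's quasi-likelihood test, with a Benjamini-Hochberg adjusted p under 0.05 as the threshold for a call. Of all tested mRNAs, 31.8% were called, 15.3% higher and 16.5% lower, and the median log2 fold change was 0.02. With library totals as the scale there were 3439 higher and 1936 lower calls in place of 2421 and 2602. Cell markers differed between the groups: of 10 endothelial markers 8 were lower, with a summed level of 7414 to 7497 CPM in control and 4035 to 4264 in silicosis libraries. Of 10 alveolar type 1 markers 7 were lower, and of 10 macrophage markers 7 were higher, with sums of 3484 to 4117 CPM in control and 6101 to 10950 in silicosis. Of 10 alveolar type 2 markers 1 was lower, and their sums overlapped, at 17860 to 20850 and 16530 to 24620 CPM. Of 10 ciliated cell markers 4 were lower, and their sums also overlapped, at 544.8 to 806.8 and 507 to 611.9 CPM. The part of these shifts in the results was not tested, and in whole lung fewer cells of a type and less RNA per cell cannot be told apart.

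Of the 99 genes, 95 were tested. Messenger RNAs of the mitochondrial genome were lower in silicosis, by a median of 1.51 on the log2 scale over 12 tested genes, of which 8 were called lower. Not called were mt-Co1, the most abundant, mt-Co3, mt-Nd3 and mt-Nd6. Of the 8, mt-Co2, mt-Atp6 and mt-Nd4l share nearly all their sequence with other annotated genes, so their levels are uncertain. mt-Nd4 shares 62.4% of its sequence, and the uncalled mt-Co1 51.3%, so their levels are uncertain in part. None of the 12 was higher by edgeR, DESeq2 or limma-voom, or at an unadjusted p under 0.05. The 83 tested nuclear genes were mixed. Their median was -0.02, yet 24 of them, or 28.9%, were called lower and 6, or 7.23%, higher, against 16.5% and 15.3% of all tested mRNAs. Such a skew was not particular to these genes. Of 96 tested cytosolic ribosome genes, 31, or 32.3%, were lower and 3, or 3.12%, higher, with a median of -0.21. At least 2-fold lower calls came to 7 mitochondrial and 11 nuclear genes, against 3.03% of all tested mRNAs. The interquartile range of the nuclear log2 fold changes ran from -0.78 to 0.29, so single subunits of one complex differed widely. In the authors' deposited table, 8 mitochondrial and 25 nuclear genes passed an adjusted p of 0.05 in the lower direction and 10 nuclear genes in the higher one, against 16% and 14.8% of all listed mRNAs.

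**Figure D1:**
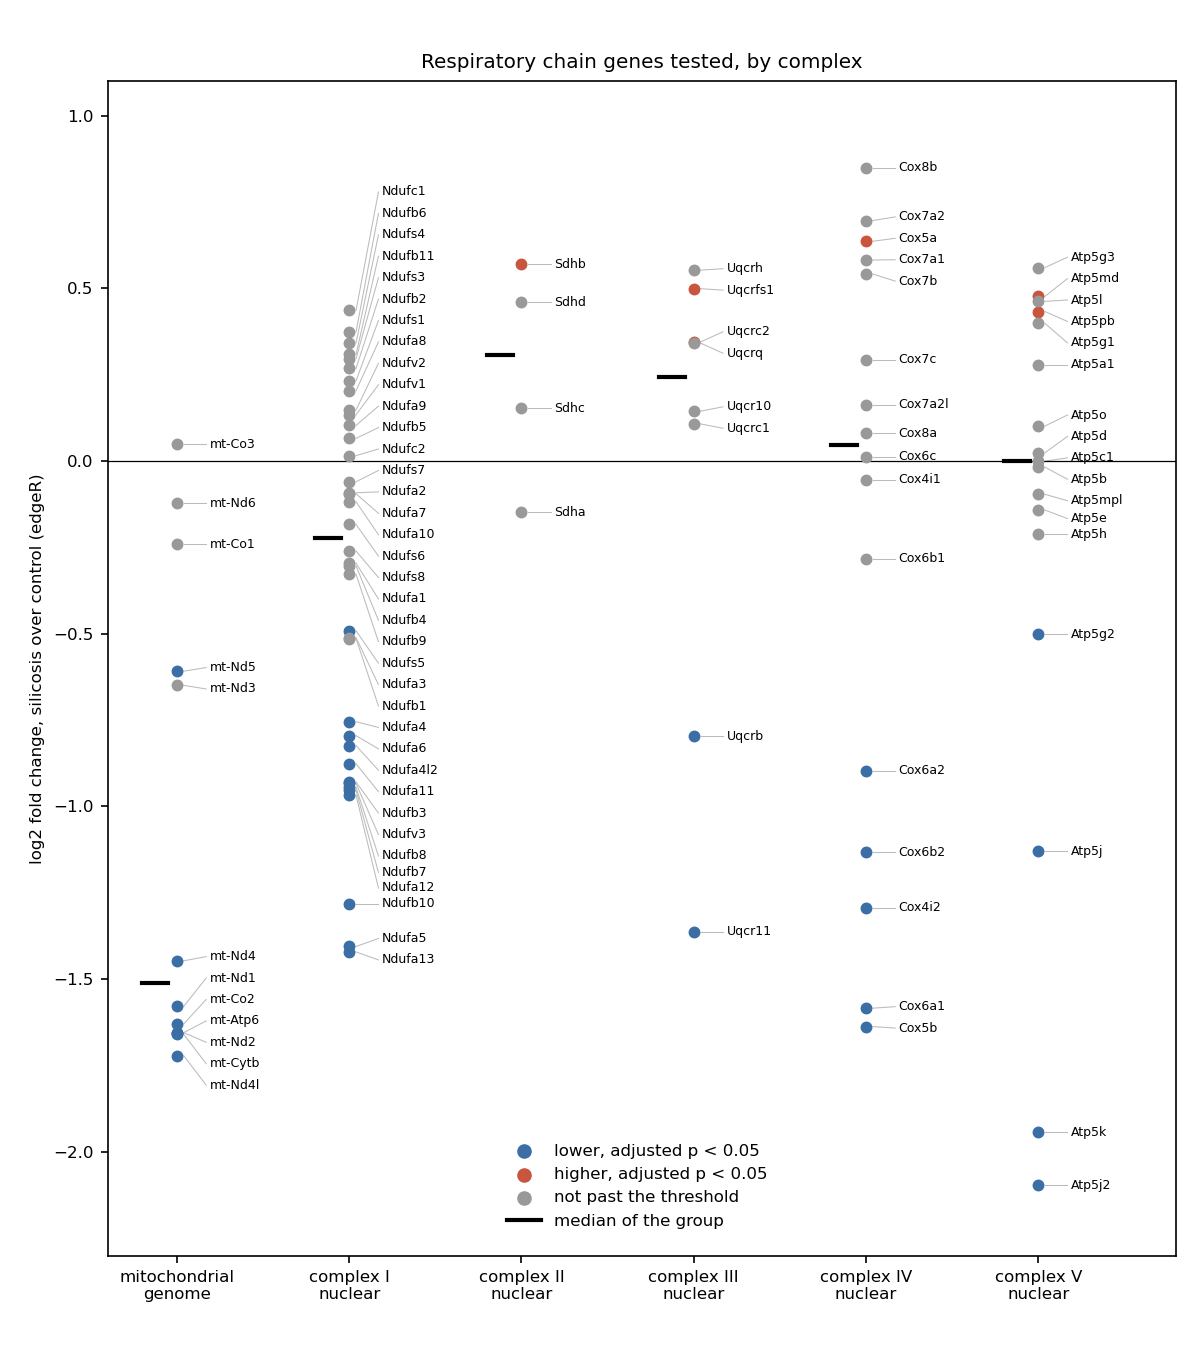
Log2 fold change (silicosis over control, edgeR) of 94 of the 95 tested genes, in columns by genome and complex, where blue points passed the threshold lower, red points higher and grey points neither, and bars are medians over all tested genes of the column. The mitochondrial column has its median at -1.51 with no red point, and the nuclear columns spread from -2.10 to 0.85.

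The mitochondrial genome encodes 7 complex I subunits, cytochrome b of complex III, 3 complex IV subunits and 2 complex V subunits. Together these genes held 1.23%, 1.25% and 1.64% of all counts in C7, C8 and C9 and 0.998%, 0.723% and 0.931% in N129, N136 and N138. The groups did not overlap, with means of 1.37% ± 0.23 and 0.884% ± 0.143 (SD, n = 3 each). C9, the highest control, also had the highest summed level of cardiomyocyte markers, 448.7 CPM against 219 and 191 in C7 and C8 and 145.7 to 252.2 in silicosis. Without C9 the difference between the means was -0.358 percentage points in place of -0.491, and the median log2 fold change of the 12 genes was -1.49. The nuclear genes held 0.346% to 0.383% of counts in control and 0.337% to 0.423% in silicosis, ranges that overlapped.

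Cytochrome b, the membrane core of complex III, showed the pattern of the abundant genes that fell. mt-Cytb had 2076, 2194 and 2749 CPM in C7, C8 and C9 and 812, 539 and 871 in N129, N136 and N138, a log2 fold change of -1.66 ± 0.19 (SE, edgeR adjusted p = 0.000356). All silicosis libraries lay far below all controls, and N136 was the lowest. mt-Nd1, a membrane core subunit of complex I next to the ubiquinone site, had 1167, 1263 and 1365 CPM in controls and 494, 278 and 499 in silicosis, a log2 fold change of -1.58 ± 0.21 (adjusted p = 0.000694, edgeR).

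The proton-pumping antiporter-like subunits of complex I gave different folds. mt-Nd2 had 1103, 1132 and 1532 CPM in controls and 473, 224 and 499 in silicosis (log2 fold change -1.65 ± 0.28, edgeR adjusted p = 0.00231). mt-Nd4 had 1244, 1334 and 1728 CPM against 595, 313 and 672 (-1.45 ± 0.26, edgeR adjusted p = 0.00311). mt-Nd5 had 1561, 1561 and 2359 CPM against 1387, 990 and 1218, so the groups were separate but close. Its log2 fold change was -0.61 ± 0.19 (edgeR adjusted p = 0.0342), and the call was lost with library totals as the scale (adjusted p = 0.0743) and without C9, N136 or N138 (0.0994, 0.0855 and 0.0506). The count of mt-Nd4 per count of mt-Nd5 was 0.797, 0.855 and 0.733 in controls and 0.429, 0.316 and 0.552 in silicosis, a ratio within a library that no scaling moves. It was lower in every silicosis library than in any control. mt-Nd4 shares 62.4% of its sequence with other transcripts, so its level and this ratio are uncertain in part.

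A pair of abundant genes stood apart. mt-Co1, the catalytic subunit of complex IV with its haem and copper centre, had 4997, 5241 and 6529 CPM in controls and 5176, 4453 and 4559 in silicosis. The groups overlapped through N129, with a log2 fold change of -0.24 ± 0.13 (edgeR adjusted p = 0.193). Its share of all mitochondrial mRNA counts was 39.7%, 39.7% and 38.4% in controls and 54.4%, 61.4% and 52.2% in silicosis. The count of mt-Nd1 per count of mt-Co1 was 0.234, 0.241 and 0.209 in controls and 0.0954, 0.0624 and 0.109 in silicosis. mt-Co1 shares 51.3% of its sequence with other transcripts, so its level, its share and this ratio are uncertain in part. mt-Nd6, a complex I subunit and the one protein gene read from the light strand, had 388, 428 and 684 CPM in controls and 557, 434 and 387 in silicosis. These values overlapped, with a log2 fold change of -0.12 ± 0.22 (edgeR adjusted p = 0.701), whose sign turned without C9 (0.17). The count of its neighbour mt-Cytb per count of mt-Nd6 was 5.35, 5.13 and 4.02 in controls and 1.46, 1.24 and 2.25 in silicosis. Because the strand setting is not given, reads of the opposite strand may be in the mt-Nd6 count.

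**Figure D2:**
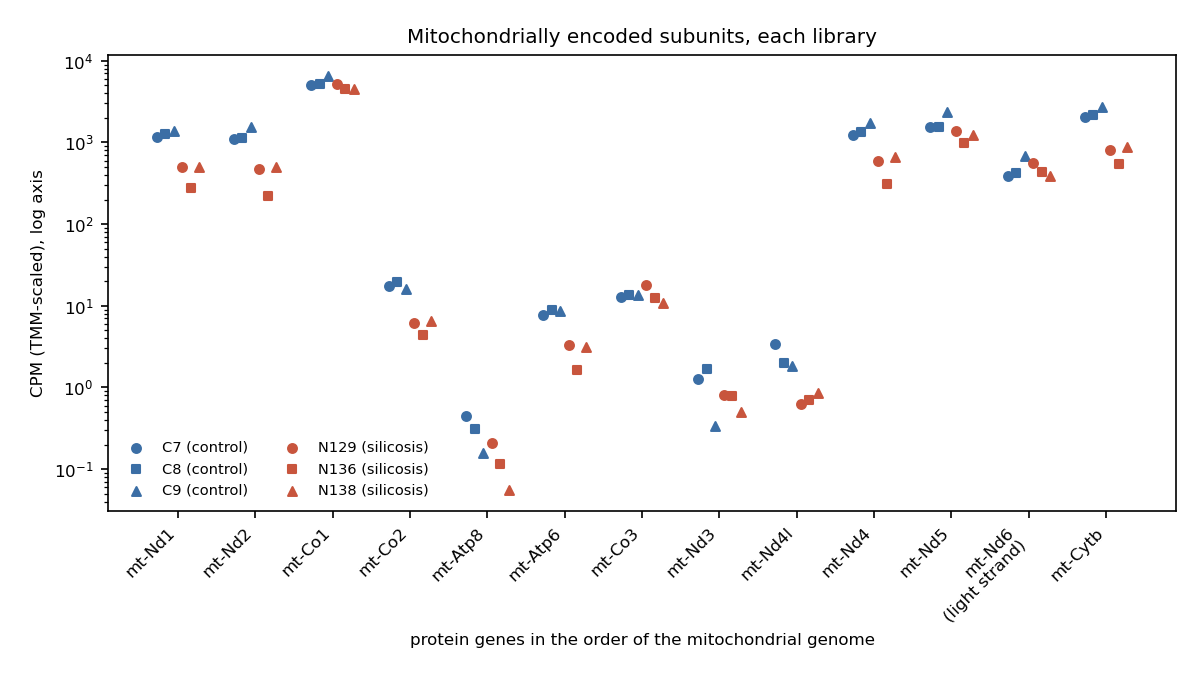
CPM (log axis) of the 13 mitochondrially encoded genes in each library, in their order along the mitochondrial genome, with controls in blue and silicosis in red. From mt-Co2 to mt-Nd4l the genes sit between 0.0556 and 19.6 CPM, and the others at 224 CPM or above.

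The level per length, CPM per kilobase of the gene's transcript, fell into 2 ranges along the genome. In controls mt-Co1 stood at 3617 CPM per kb, mt-Cytb at 2045, mt-Nd1 at 1322, mt-Nd2 at 1210, mt-Nd4 at 1042, mt-Nd5 at 1002 and mt-Nd6 at 963. The 6 genes that lie side by side from mt-Co2 to mt-Nd4l stood between 1.495 and 25.9 CPM per kb. Of these, mt-Co2, mt-Atp6, mt-Co3, mt-Nd3 and mt-Nd4l share 98% to 100% of their 50-base windows with transcripts annotated as other genes, such as Gm28661 for mt-Co2. Not given in the sources used here is how reads that match more than 1 place were counted, so the levels of these 5 genes are uncertain. mt-Atp8 shares none of its windows, but only annotated transcripts were searched, so a copy elsewhere in the genome would not show. Its level is equally low and uncertain too, with counts of 18, 13 and 6 in controls and 8, 5 and 2 in silicosis, too few to be tested. mt-Co1 and mt-Nd4 share 51.3% and 62.4% of windows, so their levels are uncertain in part. mt-Nd2 shares 8.08%, mt-Nd5 7.61%, and mt-Nd1, mt-Nd6 and mt-Cytb none.

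Within that low stretch the 2 genes of complex IV changed their ratio. mt-Co2, which receives electrons from cytochrome c, had 17.5, 19.6 and 16.2 CPM in controls and 6.21, 4.43 and 6.59 in silicosis (log2 fold change -1.63 ± 0.18, edgeR adjusted p = 0.000299). mt-Co3 had 12.9, 13.6 and 13.4 CPM against 17.8, 12.5 and 10.9, overlapping groups with a log2 fold change of 0.05 ± 0.18 (edgeR adjusted p = 0.866) that turned negative without N129 (-0.18). mt-Co2 counts per mt-Co3 count were 1.35, 1.44 and 1.21 in controls and 0.348, 0.354 and 0.603 in silicosis. mt-Atp6, the proton channel subunit of ATP synthase, fell by 1.65 ± 0.27 (edgeR adjusted p = 0.00192) and mt-Nd4l by 1.72 ± 0.35 (edgeR adjusted p = 0.00629), from 8.41 to 2.68 and from 2.42 to 0.733 mean CPM. mt-Nd3 did not pass, at 1.09 against 0.696 mean CPM.

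Nuclear complex I genes encode the NADH-binding and ubiquinone-binding core of the matrix arm and a shell of accessory subunits. Of 38 tested, 13, or 34.2%, were called lower and none higher by edgeR, beside 16.5% and 15.3% of all tested mRNAs. DESeq2 and limma-voom also called none higher, and 2 were higher at an unadjusted p under 0.05. The 6 core subunits Ndufs1, Ndufs3, Ndufs7, Ndufs8, Ndufv1 and Ndufv2 gave no call in either direction by edgeR, DESeq2 or limma-voom, with 1 higher and 1 lower at an unadjusted p under 0.05. Their log2 fold changes ran from -0.26 to 0.30 with a median of 0.14. All 13 lower calls were among 31 genes grouped here as accessory by their symbols, whose median was -0.33. Among these 13 were Ndufa4 and Ndufa4l2, though later work places Ndufa4 in complex IV. With library totals as the scale, 3 complex I genes were called higher, 1 of them among the 6 core subunits.

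Ndufs1, the large iron-sulphur subunit through which electrons leave the flavin, had 54.6, 55.1 and 51.9 CPM in controls and 62.2, 63.8 and 63.9 in silicosis. The groups did not overlap, but the difference of 0.23 ± 0.08 on the log2 scale missed the threshold (edgeR adjusted p = 0.0608). Ndufa13, an accessory subunit also known as Grim19, had 35.0, 35.0 and 41.2 CPM in controls and 16.0, 13.7 and 11.7 in silicosis, a log2 fold change of -1.42 ± 0.14 (edgeR adjusted p = 0.000204). It shares 28.6% of its windows with the overlapping gene Tssk6. Ndufa13 counts per Ndufs1 count were 0.640, 0.634 and 0.794 in controls and 0.258, 0.215 and 0.183 in silicosis, with no overlap. Ndufa13 had the lowest fold change of the nuclear complex I genes, so this ratio only describes the pair.

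Ndufa5, an accessory subunit of the matrix arm that shares no windows, had 19.5, 19.8 and 12.7 CPM in controls and 7.64, 6.58 and 5.40 in silicosis (log2 fold change -1.41 ± 0.21, edgeR adjusted p = 0.00123). Ndufb10, an accessory subunit of the membrane arm, had 30.7, 33.5 and 32.4 CPM against 15.3, 13.1 and 11.3 (-1.28 ± 0.13, edgeR adjusted p = 0.000225). In both genes every silicosis library lay below every control. The other lower calls were Ndufa12, Ndufb7, Ndufb8, Ndufv3, Ndufb3, Ndufa11, Ndufa4l2, Ndufa6, Ndufa4 and Ndufs5, with log2 fold changes from -0.97 to -0.49 and no overlap between the groups. Ndufb3 and Ndufa11 lost the call without C8 (edgeR adjusted p = 0.0525 and 0.0523). Ndufs5 lost it with library totals (0.0631) and without C7, C8, N129 or N138 (0.0721 to 0.113). By symbol stem, 7 of 14 tested Ndufa genes, 4 of 11 Ndufb, 1 of 8 Ndufs, 1 of 3 Ndufv and 0 of 2 Ndufc were called lower. The highest values among complex I genes, none of them called, were those of Ndufc1 (0.44), Ndufb6 (0.37) and Ndufs4 (0.34).

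Complex II, succinate dehydrogenase, also works in the citric acid cycle. Sdhb, its iron-sulphur subunit, had 33.4, 40.7 and 32.4 CPM in controls and 52.4, 61.5 and 44.01 in silicosis. The groups did not overlap, and the log2 fold change was 0.57 ± 0.14 (edgeR adjusted p = 0.0156), a call lost without C7 (0.0622) or C9 (0.0581). Sdhd, a membrane anchor, had 37.2, 39.3 and 28.5 CPM against 46.0, 56.9 and 41.3, also without overlap, and just missed the threshold at 0.46 ± 0.16 (edgeR adjusted p = 0.0504). The other anchor Sdhc and the flavoprotein Sdha stood at 0.15 and -0.15 and overlapped between groups. None of the 4 was called lower by edgeR, DESeq2 or limma-voom, and none was lower at an unadjusted p under 0.05. By edgeR this made 25% higher and 0% lower, beside 15.3% and 16.5% of all tested mRNAs. With only 4 genes, the lack of a lower call does not set complex II apart.

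Nuclear complex III genes split. Of 8 tested, 2 were called higher and 2 lower, or 25% each, beside 15.3% and 16.5% of all tested mRNAs. Uqcrfs1, the Rieske iron-sulphur protein that takes electrons from ubiquinol, had 41.3, 46.8 and 34.1 CPM in controls and 58.6, 66.4 and 47.6 in silicosis (log2 fold change 0.50 ± 0.15, edgeR adjusted p = 0.0344). N138 lay just above C8. Uqcrc2, a core protein of the matrix side, rose by 0.34 ± 0.11 (edgeR adjusted p = 0.0419), and its partner Uqcrc1 did not pass, at 0.11, with the sign turned without N136 (-0.02). Both higher calls were lost without any 1 of C7, C9, N129 or N136, and that of Uqcrc2 also without C8. Uqcr11, one of the smallest subunits, had 30.1, 33.1 and 17.6 CPM in controls and 10.5, 11.3 and 9.57 in silicosis (-1.36 ± 0.22, edgeR adjusted p = 0.00189). Uqcrb, a small ubiquinone-binding subunit, fell by 0.80 ± 0.14 (edgeR adjusted p = 0.00315). Uqcr11 and Uqcrb share 11.3% and 42.9% of their windows with other transcripts. The hinge protein gene Uqcrh had 0.55 ± 0.23 (edgeR adjusted p = 0.0932).

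Complex IV contains several nuclear subunits that occur as alternative forms in different tissues. Of 16 tested genes, 5 were called lower and 1 higher, or 31.2% and 6.25%, beside 16.5% and 15.3% of all tested mRNAs. Cox5b, which binds zinc on the matrix side, had 32.99, 37.2 and 30.9 CPM in controls and 12.3, 9.82 and 10.3 in silicosis (log2 fold change -1.64 ± 0.13, edgeR adjusted p = 8.0e-05). Cox5a, another matrix-side subunit of the same enzyme, had 12.6, 14.6 and 10.9 CPM against 20.2, 21.8 and 17.2 (0.64 ± 0.15, edgeR adjusted p = 0.0117). Neither gene overlapped between the groups. Cox5b counts per Cox5a count were 2.62, 2.55 and 2.82 in controls and 0.610, 0.450 and 0.601 in silicosis, so the order of the 2 genes' counts was turned in every silicosis library. Cox5b had the lowest fold change and Cox5a the only higher call among the nuclear complex IV genes, so this ratio only describes the pair. Cox5b and Cox5a share 25.6% and 32.5% of their windows with other transcripts. Cox5a was the one higher call among the 6 that held under all 12 alternatives run.

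**Figure D3:**
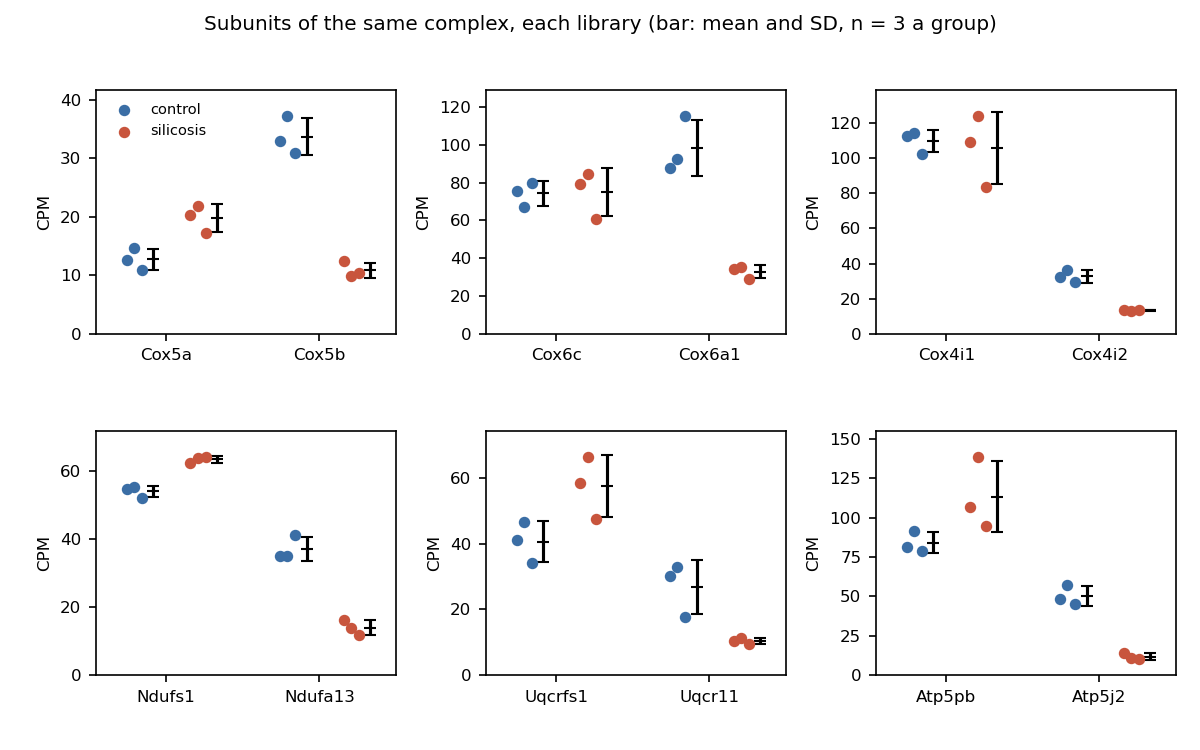
CPM in each library for pairs of subunits of the same complex, with controls in blue, silicosis in red, and the mean and SD (n = 3) beside each group. Each pair sets genes with differing fold changes side by side, so the contrast only describes them. The silicosis points lie below all controls for Cox5b, Cox6a1, Cox4i2, Ndufa13, Uqcr11 and Atp5j2 and overlap the controls for Cox6c and Cox4i1, while those of Cox5a, Ndufs1, Uqcrfs1 and Atp5pb lie above.

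Cox6a1, the widely expressed form of a small regulatory subunit, had 87.5, 92.6 and 115 CPM in controls and 34.5, 35.2 and 28.8 in silicosis (-1.58 ± 0.13, edgeR adjusted p = 9.0e-05). Its muscle form Cox6a2 had 5.09, 5.98 and 7.46 CPM against 4.04, 2.66 and 3.25 and fell by 0.90 ± 0.24 (edgeR adjusted p = 0.0184), a call lost without C8, C9 or N136 (0.0507 to 0.0671). Skeletal muscle markers were high in 2 silicosis libraries, with summed levels of 98.2 CPM in N136 and 197.5 in N138 against 7.85 to 11.9 in controls and 9.08 in N129. Cox6b2, a form known from testis, had 4.92, 6.92 and 4.75 CPM against 2.76, 1.84 and 2.98 (-1.13 ± 0.26, edgeR adjusted p = 0.0109), lost without C8 (0.0508). Testis and sperm markers summed to at most 0.548 CPM in any library.

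Cox4i2 is the form of the Cox4 subunit known from lung, where pericytes and smooth muscle express it and it takes part in oxygen sensing. It had 32.3, 36.5 and 29.4 CPM in controls and 13.3, 13.1 and 13.6 in silicosis, a log2 fold change of -1.29 ± 0.12 (edgeR adjusted p = 0.000129), and shares no windows. The 3 silicosis libraries were nearly equal and all below the controls. The common form Cox4i1 had 113, 114 and 103 CPM against 109, 124 and 83.6, overlapping groups at -0.05 ± 0.14 (edgeR adjusted p = 0.795), and its sign turned with library totals (0.05) and without N138 (0.09). Cox4i2 counts per Cox4i1 count were 0.287, 0.320 and 0.287 in controls and 0.122, 0.106 and 0.163 in silicosis. On the log2 scale with 0.5 added to each count, this ratio differed by -1.22 (exact permutation p = 0.1, two-sided, the smallest that 3 against 3 can give, and 0.25 after Benjamini-Hochberg adjustment over 5 isoform ratios). The ratio of Cox6a2 to Cox6a1 differed by 0.68 (exact permutation p = 0.1, adjusted 0.25), that of Cox8b to Cox8a by 0.59 (exact permutation p = 0.4, adjusted 0.667), or 0.05 without N129 and 0.32 without C9, and that of Cox7a1 to Cox7a2 by 0.0012 (exact permutation p = 1), the last with its sign turned by 1 added to the counts.

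Ndufa4l2, a form of Ndufa4 induced by low oxygen and also known from pericytes, had 16.7, 19.5 and 16.1 CPM in controls and 9.23, 10.3 and 10.04 in silicosis (-0.82 ± 0.13, edgeR adjusted p = 0.00191). Ndufa4, which later work places in complex IV in spite of its name, was also lower (-0.75 ± 0.13, edgeR adjusted p = 0.00254), and the ratio of the 2 forms differed by -0.06 on the log2 scale (exact permutation p = 0.8). Markers of pericytes were mixed beside these genes. Of 11, 4 were lower and 2 higher, with a summed level of 1590 to 1769 CPM in controls and 1260 to 1350 in silicosis. Higd1b had a log2 fold change of -1.01 and Notch3 of -0.63, and Rgs5 of 1.82. Of 8 smooth muscle markers 6 were lower. Their part in the fall of Cox4i2 and Ndufa4l2 was not tested.

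The other complex IV forms were scarce or variable. Cox8b, a form of muscle and brown fat, had 0.745, 1.34 and 0.626 CPM in controls and 3.08, 1.101 and 0.723 in silicosis (0.85 ± 0.56, edgeR adjusted p = 0.276, and 0.01 without N129). Its highest library, N129, also had the most counts of the brown fat gene Ucp1, 205 against 10 in N136, 2 in N138 and 0 in each control. The 7 brown fat markers summed to 33.7 CPM in N129, 22.7 in N136, 23.5 in N138 and 12.73 to 14.05 in controls. Of these 7, Dio2 and Pm20d1 were lowest of the silicosis libraries in N129, with Dio2 counts of 294 against 447 in N136 and 362 in N138. A link to Cox8b was not tested. Cox7a1, the heart and muscle form, had 2.73, 0.718 and 2.06 CPM against 2.895, 2.87 and 2.48 and did not pass (edgeR adjusted p = 0.324). Cox7a2, the common form, had 43.9, 39.4 and 18.2 CPM against 52.3, 67.4 and 44.8, separate groups with a wide control spread (0.70 ± 0.29, edgeR adjusted p = 0.0958). Cox8a, Cox6c, Cox7a2l, Cox7c and Cox6b1 stood between -0.28 and 0.29 and did not pass. Cox7b2 had counts of 0, 1 and 2 in controls and 0 in silicosis and was not tested, as were Cox5b-ps and Ndufb11b.

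In ATP synthase, no gene of the catalytic head was called. Atp5b, the catalytic beta subunit, had 379, 403 and 434 CPM in controls and 404, 475 and 320 in silicosis, and Atp5a1, the alpha subunit, 335, 354 and 297 against 394, 461 and 341. Both overlapped between the groups, and with Atp5c1, Atp5d and Atp5e the 5 head genes ran from -0.14 to 0.28 on the log2 scale. None of them was called by edgeR, DESeq2 or limma-voom or had an unadjusted p under 0.05, and 1 was called higher with library totals and 1 without N138. Of the other 12 genes 4 were lower and 2 higher. Over all 17 tested nuclear genes of complex V this made 23.5% lower and 11.8% higher, beside 16.5% and 15.3% of all tested mRNAs.

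Atp5j2, the f subunit of the membrane part, had the lowest fold change among the 95 tested genes. It had 48.3, 57.1 and 44.9 CPM in controls and 14.1, 11.03 and 10.04 in silicosis, a log2 fold change of -2.10 ± 0.15 (edgeR adjusted p = 5.7e-05). Atp5k, the e subunit, which joins the membrane parts of neighbouring synthases, had 8.12, 8.59 and 3.50 CPM against 1.49, 2.25 and 1.502 (-1.94 ± 0.36, edgeR adjusted p = 0.00381). They share 3.3% and 1.54% of their windows. Atp5j, a coupling factor of the peripheral stalk, had 61.5, 59.7 and 61.2 CPM against 28.2, 26.1 and 29.0 (-1.13 ± 0.09, edgeR adjusted p = 7.7e-05). In all 3 genes the groups were separate, by the least in Atp5k, where C9 lay near N136. Atp5j overlaps Gabpa, with 16.5% of windows shared, and Gabpa itself stood at 61.9 and 56.6 mean CPM in control and silicosis.

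The ring of c subunits is encoded by several genes for the same mature protein. Atp5g2 had 47.2, 45.2 and 40.3 CPM in controls and 34.3, 33.3 and 26.1 in silicosis (-0.50 ± 0.13, edgeR adjusted p = 0.0165), lost without C7 (0.0645) or C8 (0.0571). Atp5g3 had 42.4, 48.1 and 24.8 CPM against 54.4, 63.4 and 52.2 and did not pass (0.56 ± 0.21, edgeR adjusted p = 0.0744), nor did Atp5g1 (0.40). Atp5pb, the b subunit of the stalk, had 81.7, 91.5 and 78.9 CPM against 107, 138.4 and 94.8 (0.43 ± 0.14, edgeR adjusted p = 0.0425). Atp5md, a small membrane subunit, rose by 0.48 ± 0.16 (edgeR adjusted p = 0.0487). Both calls were lost without C7, C8, C9, N129 or N136, and that of Atp5md also with DESeq2 size factors, no filter or limma-voom. Atp5l, the g subunit, had 39.6, 32.9 and 23.1 CPM against 45.2, 47.8 and 38.7, overlapping groups that did not pass (0.46 ± 0.18, edgeR adjusted p = 0.0839), and shares 84.8% of its windows.

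Across single libraries, as the heat map of nuclear genes shows, the lower calls were low in every silicosis library and the higher calls were highest in N136. The median nuclear log2 difference from the control mean was -0.001 in N129, 0.23 in N136 and -0.29 in N138, and 0.004, 0.12 and -0.14 in C7, C8 and C9. The 24 lower genes summed to 718, 758 and 700 CPM in controls and 357, 344 and 297 in silicosis, while the 6 higher genes summed to 246, 270 and 236 against 339, 406 and 288. These genes were chosen by the same comparison, so the sums only describe them. All 24 lower and all 6 higher genes had groups that did not overlap. Groups were separate in 37 of the 83 nuclear genes and in 45 of all 95, beside 47.7% of all tested mRNAs. The number of higher calls depended on single libraries: it was 1 without C9, 2 without C7, N129 or N136 and 14 without N138, in place of 6. The lower calls numbered 18 to 26 with any 1 library left out.

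**Figure D4:**
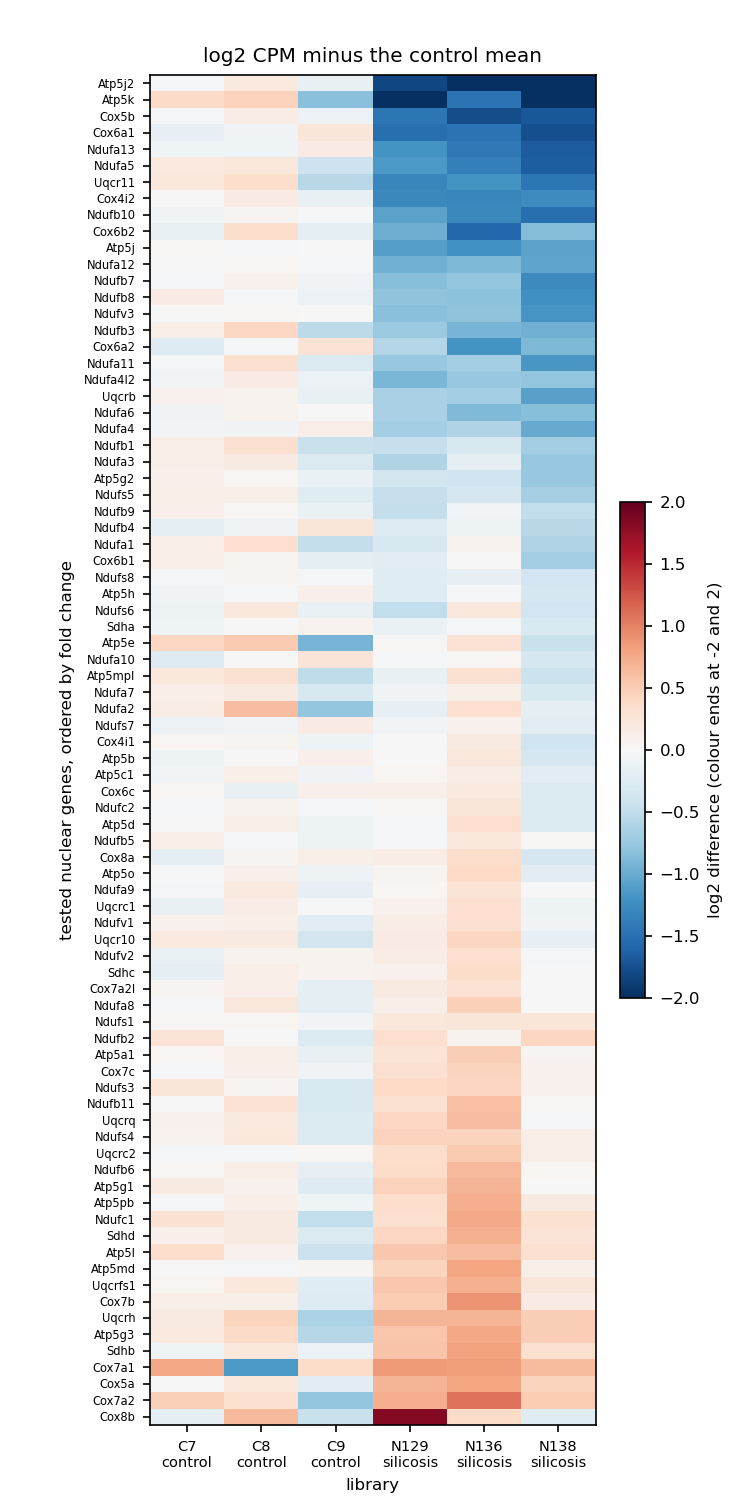
Log2 CPM minus the control mean for 82 of the 83 tested nuclear genes, in rows from the lowest to the highest fold change and in columns by library, with the colour scale ending at -2 and 2. The genes at the top are blue in all 3 silicosis libraries, and N136 is redder than N138 in the lower part.

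Transcript lengths were set beside the calls. The median transcript length was 743 nucleotides for 24 lower genes, 939.5 for 52 genes without a call and 1252.5 for the 4 higher genes with a transcript. Across the 80 nuclear genes with a length, the Spearman correlation of log2 length with the log2 fold change was 0.20, over genes that share the same libraries. Among genes of up to 700 nucleotides 10 of 28 members were lower, or 35.7%, beside 21.8% of the other tested mRNAs of that length. From there to 1000 nucleotides 10 of 21 were lower, or 47.6%, beside 18.2%. Over 1000 and up to 1500 nucleotides 2 of 13 were lower, or 15.4%, beside 13.9%. Above 1500 nucleotides 2 of 18 were lower, or 11.1%, beside 16.6%. Short genes also varied among controls: in C9, 63 of 83 nuclear genes lay below the mean of C7 and C8, by a median of -0.33 on the log2 scale for genes of up to 700 nucleotides and -0.15 over 1000. Without C9 there were 25 lower nuclear calls in place of 24, and 1 higher call in place of 6. The part of length and of C9 in the fold changes was not tested. Sequence shared with other transcripts reached 10% of windows in 25 nuclear genes, of which 9 were lower, and stayed below it in 55, of which 15 were lower.

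The promoters of nuclear respiratory genes are a textbook target of NRF1 and of the ETS factor GABP, which link them to the needs of the cell. RefSeq promoters (build GRCm38.p6, an earlier build than the authors' GRCm39) were found for 69 of the 86 nuclear genes, and the 250 bases before the start were searched on both strands. The NRF1 letters, the half-site GCGCA followed directly by its reverse complement TGCGC and so the same on both strands, were in 4 of the 69, all of them lower genes, out of 20 lower, 5 higher, 43 uncalled and 1 untested gene with a promoter. Of all 27025 genes with a promoter 0.877% hold them. The ETS letters CCGGAAG were in 12 of 69 (4 lower, 0 higher and 8 uncalled), beside 7.83% of all genes with a promoter. The SP1 letters GGGCGG were in 25 (8 lower, 4 higher, 12 uncalled and the untested Cox7b2), beside 35.4%. Only these exact letters were searched, so sites spelled otherwise were not counted. A match is a description of the letters and shows no binding, and a link between the letters and the calls was not tested. The 4 promoters with the NRF1 letters are printed because all belong to genes that fell, each from 250 bases before the start up to the start, 5′ to 3′ on the gene's strand, with the NRF1 letters in capitals. They are those of Atp5k (chr5:108434400-108434649, minus strand), Cox6a1 (chr5:115348959-115349208, minus), Atp5g2 (chr15:102671048-102671297, minus) and Ndufa11 (chr17:56717512-56717761, plus), and the letters begin 50, 162, 42 and 60 bases before the start.
Atp5k: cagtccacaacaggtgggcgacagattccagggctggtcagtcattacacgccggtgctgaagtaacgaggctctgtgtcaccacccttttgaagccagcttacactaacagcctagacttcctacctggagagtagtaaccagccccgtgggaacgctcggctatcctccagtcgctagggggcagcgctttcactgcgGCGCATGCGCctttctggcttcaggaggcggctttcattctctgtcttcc
Cox6a1: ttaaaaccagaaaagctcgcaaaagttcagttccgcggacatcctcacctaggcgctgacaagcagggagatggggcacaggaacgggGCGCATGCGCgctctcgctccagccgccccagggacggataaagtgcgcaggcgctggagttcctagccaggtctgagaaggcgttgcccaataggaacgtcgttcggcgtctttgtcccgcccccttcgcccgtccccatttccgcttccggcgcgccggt
Atp5g2: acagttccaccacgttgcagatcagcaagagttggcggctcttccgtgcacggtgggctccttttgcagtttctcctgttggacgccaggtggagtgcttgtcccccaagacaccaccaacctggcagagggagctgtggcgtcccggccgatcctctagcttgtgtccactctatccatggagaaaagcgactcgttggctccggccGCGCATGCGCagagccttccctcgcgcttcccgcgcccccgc
Ndufa11: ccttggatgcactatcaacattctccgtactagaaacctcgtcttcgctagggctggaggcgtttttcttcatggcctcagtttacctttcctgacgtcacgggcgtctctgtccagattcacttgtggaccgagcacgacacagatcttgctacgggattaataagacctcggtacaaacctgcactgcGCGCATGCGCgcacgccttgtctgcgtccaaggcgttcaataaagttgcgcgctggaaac

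Assembly factors put the subunits and their cofactors together. Of 17 for complex I, 2 were lower and 1 higher, or 11.8% and 5.88% beside 16.5% and 15.3% of all tested mRNAs. Ndufaf2, which assists late assembly, had a log2 fold change of -1.10 ± 0.29 (edgeR adjusted p = 0.0202) and Foxred1 of 0.44 ± 0.13 (edgeR adjusted p = 0.0290). Of 23 for complex IV, 4 were lower and 1 higher, or 17.4% and 4.35%. Cox11, which brings copper to mt-Co1, fell by 1.13 ± 0.25 (edgeR adjusted p = 0.00827), and Coa5 rose by 0.49 ± 0.12 (edgeR adjusted p = 0.0159). Of 14 assembly factors of complexes II, III and V none was called by edgeR or limma-voom, with 1 lower by DESeq2 and 2 higher and 1 lower at an unadjusted p under 0.05. The medians of these lists were 0.15, -0.12 and 0.08, beside 0.02 for all tested mRNAs.

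The mobile carriers were mixed. Of 19 genes for cytochrome c, ubiquinone synthesis and electron transfer flavoprotein, 5 were higher and 2 lower, or 26.3% and 10.5% beside 15.3% and 16.5% of all tested mRNAs. Cycs, cytochrome c itself, fell from 30.6 to 20.3 mean CPM (-0.59 ± 0.19, edgeR adjusted p = 0.0375), and Etfb, a subunit of electron transfer flavoprotein, from 3.12 to 1.45 (-1.11 ± 0.31, edgeR adjusted p = 0.0258). The 5 higher genes, Pdss1, Coq2, Coq3, Coq4 and Coq8a, all act in ubiquinone synthesis, with log2 fold changes from 0.30 to 0.88. Without C9 there was 1 higher call in this list and without N138 there was 1.

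Genes that copy and express the mitochondrial genome included no lower call. Of 27 tested, 4 were higher, or 14.8% beside 15.3% of all tested mRNAs. None was lower by edgeR, DESeq2 or limma-voom or at an unadjusted p under 0.05. Tfam, which packs mitochondrial DNA and starts its transcription, had 24.9 mean CPM in control and 32.4 in silicosis (0.38 ± 0.12, edgeR adjusted p = 0.0350). Lrpprc, which stabilises mitochondrial mRNAs, rose from 50.1 to 72.3 (0.53 ± 0.09, edgeR adjusted p = 0.00212). Fastkd2 and Mterf3 were the other higher genes. The median of the list was 0.25.

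Of 77 genes of the mitochondrial ribosome 15, or 19.5%, were lower and 7, or 9.09%, higher, beside 16.5% and 15.3% of all tested mRNAs. Among these calls Mrps21 was the lowest (-1.34) and Mrps24 the highest (0.62). Of 17 regulators of mitochondrial biogenesis, 1 was lower (Ppard, -0.37) and 1 higher (Perm1, 0.97), or 5.88% each way. Of 18 citric acid cycle genes, Idh3a (0.42) and Pcx (0.46), or 11.1%, were higher. None of the 18 was called lower by edgeR, DESeq2 or limma-voom, with 1 lower at an unadjusted p under 0.05.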

How the data were processed

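Total RNA of whole lung was measured in 6 libraries, grouped by the treatment in the labels. The authors deposited raw whole-number counts per mRNA and library, not normalised, and a table of log2 fold changes (silicosis over control) with p-values and adjusted p-values for the same mRNAs. Named in the submitters' processing notes, without their roles, are the tools DESeq2 1.36.0, featureCounts 2.0.0, Bowtie2, HISAT2 and Trimmomatic 0.39 and the build GRCm39. Not given in the sources used here are the annotation, the RNA selection, the strand setting and the treatment of reads that match several places. Without a strand setting, reads of overlapping genes cannot be told apart. Tables of lncRNAs and circRNAs were not used here.

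All 17973 mRNAs entered 1 fit with edgeR 4.0.16 in R 4.3.3 (filterByExpr, TMM factors, two-sided quasi-likelihood F test, Benjamini-Hochberg adjustment over 15808 tested mRNAs, which held 99.98% of counts). The SE of a log2 fold change was obtained from F, as its absolute value over the root of F. Errors of means are SD with n = 3. Within groups, pairs of libraries differed by a chi-square per degree of freedom of 15.3 to 82.1, so each counted as 1 sample. The 5 isoform ratios were compared by an exact two-sided permutation test. The other ratios of single genes were set between genes with differing fold changes, so they only describe these genes. Lengths and shared sequence came from GENCODE transcripts of GRCm38: windows of 50 bases every 5 bases of the longest transcript, for 17553 mRNAs. The tables give symbols without positions.

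The members and gene lists were chosen with earlier results of these data known. Genes are named by a rule: all mt- and Sdh genes, the 3 highest and 3 lowest in each other nuclear complex, tissue isoforms, and the 2 highest and lowest called in each related list. Other genes, such as further called members, the complex I core, Gabpa and cell markers, were named after their values were seen. Complexes follow symbol stems. The values of 1 nuclear gene are not reported here, though it is in the counts of tested genes. Alternatives were DESeq2 size factors, library totals, scaling without mitochondrial genes, no filter, DESeq2 1.42.0, limma-voom (limma 3.58.1) and each library left out. A count without the genes whose windows are shared at 10% or above was added after seeing the data, for nuclear genes only. Tested on simulated data for the mRNA comparison over 15808 genes, edgeR called 81% of the 100 genes set to change 2-fold and 93% of those set to change 4-fold, while 4.92% of its calls had no set change. These rates hold only for that setting, with far fewer changed genes than the 5023 mRNAs called here. No smaller change was simulated, so they say nothing about the nuclear higher calls, at 1.27- to 1.55-fold.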

Additional observations from a re-analysis of the deposited data

How the results depend on the processing

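Of 38 called genes, 26 held in all 12 alternatives and none changed sign: 25 of 32 lower calls and 1 of 6 higher calls. Library totals moved the median of all mRNAs from 0.02 to 0.13 and the calls from 2421 higher and 2602 lower to 3439 and 1936, so changes near 0 depend on the scale. Nuclear lower calls were 24, and 15 when genes that share sequence were left out. That setting also gave 1 higher and 0 lower calls in complex III, 0 and 3 in complex IV and 2 lower in complex V. Nuclear higher calls, 6, became 16 with library totals and 11 with DESeq2. With library totals there were 3 higher in complex I, 2 in complex II, 3 in complex IV and 5 in complex V. With DESeq2 there were 2 in complex II and 3 in complex IV. Complex III had 1 higher with no filter, and complex V had 1 with DESeq2 size factors, no filter or limma-voom. With a library left out, higher calls ranged from 1 to 14 for nuclear genes, 0 to 2 in complexes I and II, 0 to 3 in complex III, 1 to 3 in complex IV and 0 to 4 in complex V, and lower calls in complex IV from 3 to 5. The mitochondrial median ranged from -1.66 to -1.19, the latter without N136. The Cox7a1 to Cox7a2 log2 ratio differed by 0.0012, by -0.0048 with 1 added to the counts and by -0.73 to 0.58 with a library left out, and that of Ndufa4l2 to Ndufa4 by -0.1926 to 0.0623. Single genes near 0 turned sign, none of them called. With library totals these were Cox4i1 (0.0452), Atp5b, Atp5c1, Atp5mpl, Ndufa2, Ndufa7 and Ndufs7. All of these also turned with a library left out, as did Atp5d, Atp5e, Atp5o, Cox6c, Ndufa10, Ndufb5, Ndufc2 and Uqcr10. With a library left out Cox4i1 (-0.1909 to 0.0908), mt-Co3 (-0.1838 to 0.187), mt-Nd6 (-0.2862 to 0.168), Cox8a (-0.0808 to 0.2523) and Uqcrc1 (-0.0205 to 0.2066) spanned 0. The causes were not tested. Of 318 alternative values of groups and ratios, 272 stayed close to the main value by set limits and 46 did not. A count had to stay within 1.5-fold, and 0 had to stay 0. Medians and the mitochondrial share had to move by under 1 within-group SD. For isoform ratios only the sign had to hold. No paired analysis was possible because the groups share no replicate numbers. Leaving out a library leaves a group of 2, and rises of under 1.5-fold, as most higher calls were, are at the limit of 3 libraries a group.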

Other observations

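In N138 the counts of mt-Nd1 and mt-Nd2 were the same, 17946, while in the other 5 libraries they differed. The deposited table holds this value in both places.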
